A study of Mus musculus with 15 samples.

Results

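The genes described here are the DEAD box and DEAH box RNA helicases, taken as every gene whose symbol in the array's annotation begins with Ddx or Dhx and a number and that has at least 1 probe set on the array assigned to it alone. The rule gave 51 genes, 35 Ddx and 16 Dhx, out of 18193 genes with such a probe set. Where a gene had several probe sets, the brightest on average stood for it. Whole blood of 15 mice was studied 6 h into treatment: 5 mice had received vehicle, 5 ABBV-075 at 1 mg/kg and 5 ABBV-075 at 5 mg/kg. ABBV-075 (mivebresib) blocks the bromodomains of the BET family, readers of histone acetylation that help RNA polymerase II to transcribe. Strain, sex, age and route of dosing are not given in the sources used here, and nothing but the compound and its dose separates the groups in the labels. Each array holds the RNA of 1 mouse, so p-values measure the spread between mice within a group.

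DEAD box and DEAH box proteins use ATP to open RNA duplexes or to strip proteins from RNA. Between them they act at nearly every step in the life of an RNA, from splicing and ribosome assembly to export, translation and decay, and a few of them detect viral RNA. Most are housekeeping genes that blood cells share with other tissues, whereas the RNA sensors are induced by interferon.

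The values were normalised between arrays and are given as log2 intensity, on which 1 unit is a doubling. Intensities under 16 were set to 16, so 4.0 is the floor of the scale and means that no signal above it was measured. A gene was tested where it lay above the floor on at least 5 of the 15 arrays. In the library labelled 1 mg/kg replicate 1 the median intensity before normalisation was 3.61, against 7.61 to 25.4 on the other arrays, so the 1 mg/kg results of members and gene sets are also given without it. The 18S ribosomal RNA control signal was 11.19 ± 0.94 (SD, n = 5) in the vehicle arrays, 9.97 ± 0.43 at 1 mg/kg and 9.42 ± 0.42 at 5 mg/kg on the log2 scale. Erythroid marker genes had a summed intensity of 12988 to 17783 per array over the 6 of 9 that have a probe set. Most of it came from Alas2, with group means of 13.43 to 13.48. Hba-a1, Epb42 and Tfrc were dimmer, with group means of 6.65 to 7.67. Of the T cell markers Cd4 was at the floor on all arrays.

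Of the 51 helicase genes, 37 were tested, 24 Ddx and 13 Dhx. The other 14 were at or close to the floor. Ddx4 and Ddx43 (germ line genes), Ddx23 (a component of the spliceosome), Ddx28 (mitochondrial ribosome assembly), Ddx55 (ribosome assembly) and Ddx60 (antiviral defence) were at 4.0 on all 15 arrays. Ddx31, Ddx59 and Dhx38 exceeded the floor on 1 array each, Ddx41 on 2, Dhx35 and Dhx37 on 3, and Ddx11 and Ddx56 on 4. Single arrays could be well above it: Ddx11 reached 6.08 at 5 mg/kg and Ddx56 5.80 at 1 mg/kg. On a given array 32 to 38 of the 51 genes were above the floor.

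No helicase gene passed the test in any of the 3 comparisons. With limma at a Benjamini-Hochberg adjusted p of 0.05, 0 of 37 passed between 5 mg/kg and vehicle, where 0.088% of the 12499 genes tested on the array passed. The count was 0 of 37 between 1 mg/kg and vehicle, where 0.008% of all genes passed, and 0 of 37 between the doses, where 0% did. At an unadjusted p under 0.05 there were 3 helicase genes in each comparison. Each 3 of 37 is 8.11%. For 5 mg/kg against vehicle, where 7.78% of all genes met this p, 3.51% of all genes upward and 4.26% downward, they were Ddx5 and Ddx39b, which were higher, and Dhx32, which was lower. For 1 mg/kg against vehicle, with 6.03% of all genes, 1.97% upward and 4.06% downward, they were Dhx32, Ddx17 and Ddx39a, all lower. For 5 mg/kg against 1 mg/kg, with 7.9% of all genes, 5.26% upward and 2.63% downward, they were Ddx5, Ddx39b and Dhx15, all higher at the higher dose. Without 1 mg/kg replicate 1 the counts for the last 2 comparisons were 2 of 38 each (5.26%), beside 5.61% and 7.28% of all genes. That array also enters the shared fit of 5 mg/kg against vehicle, where the count without it was 4 of 38 (10.5%), beside 8.95% of all genes. The shares are thus near those of the array as a whole.

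Differences from vehicle were small for most members. With 5 mg/kg, 22 of the 37 genes had a mean above vehicle and 15 below, with a median log2 difference of 0.07 (range -0.92 to 1.71), beside a median of -0.03 over all genes, of which 46.6% were above vehicle. With 1 mg/kg, 17 were above and 20 below, with a median of -0.01 (range -1.18 to 1.04), beside -0.02 over all genes and 47% above. Between the doses 27 were higher at 5 mg/kg and 10 lower, with a median of 0.15 (range -0.57 to 0.71), beside -0.02 over all genes and 47.7% higher. Without 1 mg/kg replicate 1, which left 38 genes tested, that median was 0.16 and the one of 1 mg/kg against vehicle -0.04, with 15 genes above and 23 below. The comparisons share arrays and their values are therefore set side by side only. The median size of a difference, whatever its sign, was 0.26 at 5 mg/kg and 0.18 at 1 mg/kg, against 0.22 for all genes at either dose.

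**Figure D1:**
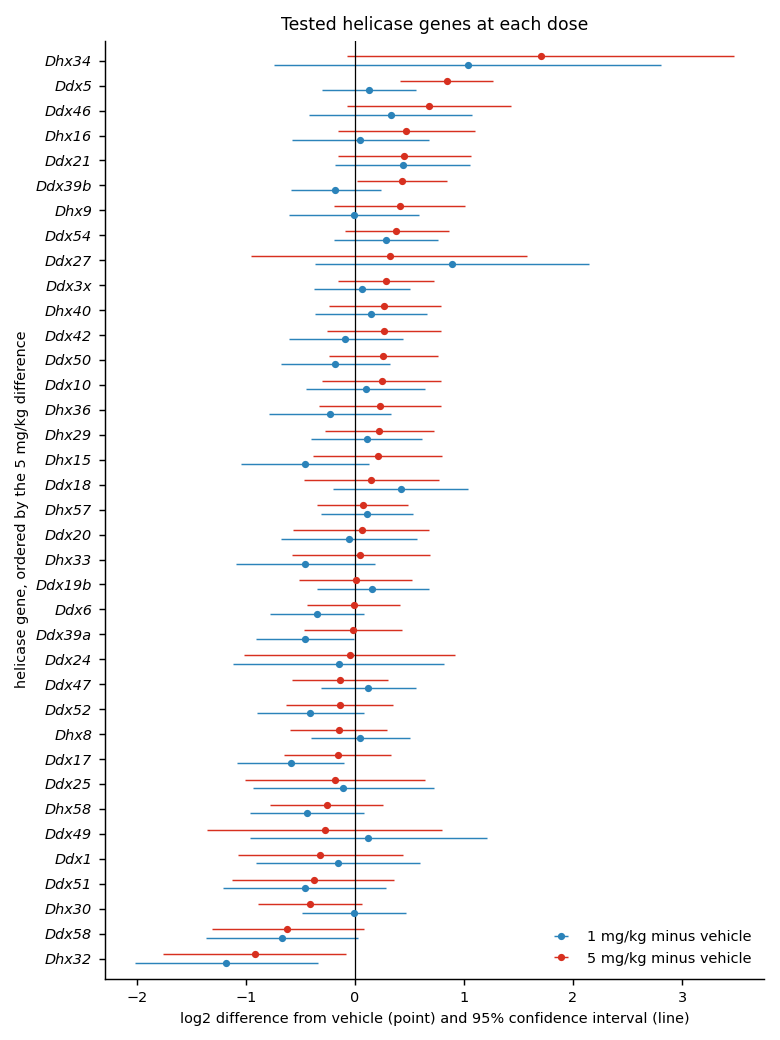
Log2 difference from vehicle (horizontal axis) of the 37 tested helicase genes (vertical axis), at 1 mg/kg (blue) and 5 mg/kg (red), as points with 95% confidence intervals from limma. At 5 mg/kg the intervals of Ddx5 and Ddx39b lie above 0 and that of Dhx32 lies below 0; at 1 mg/kg the intervals of Dhx32, Ddx17 and Ddx39a lie below 0.

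Arrays of 2 groups that did not overlap at all were also counted. Between 5 mg/kg and vehicle 2 of the 37 helicase genes were separated in this way, Ddx5 upward and Dhx32 downward, beside 2.57% of all genes. Between 1 mg/kg and vehicle there were 0, beside 0.904% of all genes, and between the doses there was 1, Ddx5, beside 1.16%.

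Among the helicases of splicing, 7 of 11 were tested, and 5 of the 7 had a higher mean at 5 mg/kg than in vehicle, with a median difference of 0.27. The median was 0.05 at 1 mg/kg and 0.42 between the doses, where 6 of 7 were higher at 5 mg/kg. Without 1 mg/kg replicate 1 the last 2 medians were -0.01 and 0.43. None passed the test. Ddx5 (p68; Entrez gene 13207) is an RNA helicase and transcriptional coregulator that also acts in splicing and microRNA processing. Its log2 intensity was 9.53, 10.25, 9.71, 9.74 and 9.71 in the vehicle arrays. It was 9.57, 10.12, 10.23, 10.17 and 9.49 at 1 mg/kg. The 5 arrays at 5 mg/kg gave 10.44, 10.57, 10.51, 10.82 and 10.78. All 5 arrays at 5 mg/kg were above every vehicle and every 1 mg/kg array, while the vehicle and 1 mg/kg arrays overlapped. The difference from vehicle at 5 mg/kg was 0.84 ± 0.20 (SE, 95% interval 0.41 to 1.27), a 1.79-fold higher intensity. Its unadjusted p of 8.1e-04 ranked 65 among the 12499 genes and gave a limma adjusted p of 0.152. The difference at 1 mg/kg was 0.13 ± 0.20 (limma adjusted p = 0.949), or 0.22 without replicate 1 of that group. The 5 mg/kg group exceeded the 1 mg/kg group by 0.71 ± 0.20 (limma adjusted p = 0.486), or by 0.62 without 1 mg/kg replicate 1.

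Other probe sets of Ddx5 gave the same direction. Of its 6 probe sets 5 were tested, and all 5 were higher at 5 mg/kg than in vehicle, by 0.63 to 1.06 on the log2 scale. Their unadjusted p ran from 6.0e-04 to 0.0343 and their limma p adjusted over all probe sets from 0.132 to 0.553. The same 5 differed from vehicle by 0 to 0.67 at 1 mg/kg, or by -0.06 to 0.43 without replicate 1 of that group. The probe set with the greatest difference, an _a_at set, read 8.28, 8.99, 8.46, 8.29 and 8.05 in vehicle and 9.04, 9.04, 9.85, 9.74 and 9.68 at 5 mg/kg, again without overlap. The probe set that represents Ddx5 carries the suffix _x_at, which marks probes that can also bind related transcripts; the _a_at sets are designed against the transcripts of 1 gene.

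Ddx17 (p72; Entrez gene 67040), the close relative and partner of Ddx5, had another pattern. It read 8.43, 8.64, 8.53, 8.56 and 8.19 in vehicle. Its 1 mg/kg values were 8.20, 7.98, 8.15, 8.03 and 7.03. Its 5 mg/kg values were 8.17, 7.92, 8.45, 8.70 and 8.30. The 1 mg/kg arrays were low, with only replicate 1 of that group above the lowest vehicle array, and the 5 mg/kg arrays overlapped vehicle. The difference was -0.59 ± 0.23 at 1 mg/kg (unadjusted p = 0.0209, limma adjusted p = 0.782) and -0.16 ± 0.23 at 5 mg/kg (limma adjusted p = 0.939). Leaving out replicate 1 of the 1 mg/kg group gave -0.67, and leaving out replicate 5, its lowest array, gave -0.38. These values come from an _x_at set. The other tested Ddx17 probe set, an _a_at set, differed from vehicle by 0.01 at 1 mg/kg (-0.11 without replicate 1) and by 0.11 at 5 mg/kg, so the lower value was seen with the _x_at set alone. The limma test of the doses against each other gave 0.43 ± 0.23 (adjusted p = 0.674), or 0.51 without replicate 1.

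**Figure D2:**
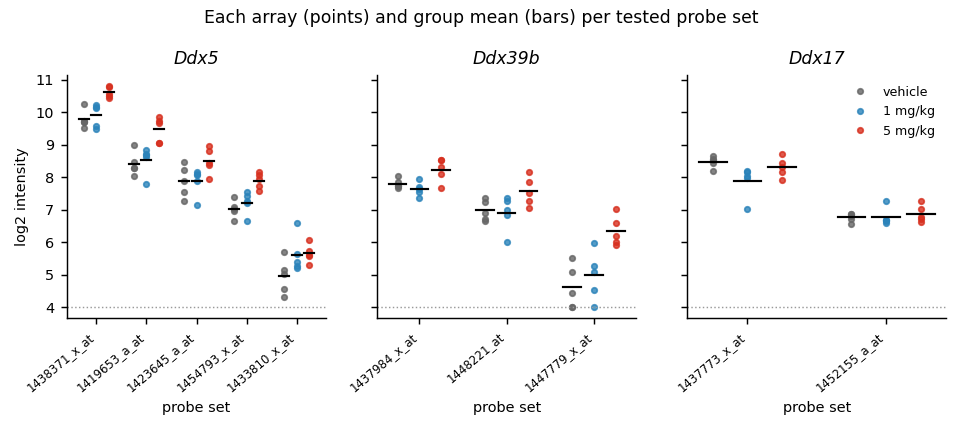
Log2 intensity (vertical axis) of each tested probe set (horizontal axis) of Ddx5, Ddx39b and Ddx17, with 1 point per array in vehicle (grey), 1 mg/kg (blue) and 5 mg/kg (red), a bar at each group mean and a dotted line at the floor. All 5 Ddx5 and all 3 Ddx39b probe sets have a higher mean at 5 mg/kg than in vehicle; the levels of different probe sets are not comparable.

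Dhx15 (Entrez gene 13204), which with G-patch cofactors takes spent spliceosomes apart, read 7.12, 8.21, 7.33, 7.30 and 7.02 in vehicle. It read 6.25, 7.46, 6.95, 7.53 and 6.51 at 1 mg/kg and 7.35, 7.48, 7.63, 7.60 and 7.96 at 5 mg/kg. Vehicle replicate 2 was the highest of all 15 arrays, and the 1 mg/kg group held the lowest 3. The 5 mg/kg group was 0.66 ± 0.28 above the 1 mg/kg group (unadjusted p = 0.0303, limma adjusted p = 0.571) and 0.49 above it without 1 mg/kg replicate 1. Against vehicle the difference was -0.46 ± 0.28 at 1 mg/kg (-0.29 without replicate 1) and 0.21 ± 0.28 at 5 mg/kg, with limma adjusted p of 0.867 and 0.935. Its second probe set differed between the doses by 0.80 (unadjusted p = 0.0399), or by 0.55 (unadjusted p = 0.125) without 1 mg/kg replicate 1.

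The other tested splicing helicases did not differ beyond their spread. Ddx46 (Prp5), which acts when U2 joins the branch site, was 0.68 ± 0.35 above vehicle at 5 mg/kg (unadjusted p = 0.0713, limma adjusted p = 0.712). Its arrays read 5.38, 4.46, 4.45, 5.07 and 5.25 in vehicle and 5.50, 5.66, 6.42, 5.59 and 4.85 at 5 mg/kg, so 4 of 5 treated arrays exceeded the highest vehicle array. Without 5 mg/kg replicate 3 the difference was 0.48. The second tested Ddx46 probe set gave 0.20 (unadjusted p = 0.372). The mean of all its probe sets gave 0.18, but it takes in untested sets with group means of 4.0 or 4.01, at or next to the floor. Dhx16, Dhx8 and Ddx42, which also act in the spliceosome, differed from vehicle by 0.47, -0.15 and 0.27 at 5 mg/kg, each with a 95% interval that spanned 0.

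Of the 9 listed helicases of mRNA export, translation and decay, 7 had a probe set assigned to them alone, and all 7 were tested. Among these, 5 had a higher mean at 5 mg/kg, with a median of 0.22. The median was 0.06 at 1 mg/kg and 0.33 between the doses, or 0.10 and 0.17 without 1 mg/kg replicate 1. None passed the test. Ddx39b (UAP56; Entrez gene 53817) loads export factors onto spliced mRNA. It read 7.73, 8.05, 7.84, 7.68 and 7.73 in vehicle. The 1 mg/kg arrays read 7.69, 7.93, 7.54, 7.64 and 7.35. The 5 mg/kg arrays read 7.68, 8.32, 8.53, 8.53 and 8.10. Replicates 2 to 5 at 5 mg/kg were above every array of the other groups, and replicate 1 lay among them. The difference from vehicle at 5 mg/kg was 0.43 ± 0.19 (95% interval 0.02 to 0.84, 1.34-fold; unadjusted p = 0.0429, limma adjusted p = 0.618). It was -0.18 ± 0.19 at 1 mg/kg, and 0.60 ± 0.19 between the doses (unadjusted p = 0.00677, limma adjusted p = 0.491). These were -0.19 and 0.62 without 1 mg/kg replicate 1.

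All 3 tested Ddx39b probe sets were higher at 5 mg/kg than in vehicle, by 0.43, 0.59 and 1.74. The greatest difference came from a dim _x_at probe set that read 4.45, 5.08, 4.0, 4.0 and 5.50 in vehicle and 6.18, 5.91, 6.02, 7.01 and 6.60 at 5 mg/kg. These arrays did not overlap, and the limma p adjusted over all probe sets was 0.0842. The same probe sets differed from vehicle by -0.18, -0.09 and 0.37 at 1 mg/kg, or by -0.19, -0.20 and 0.35 without replicate 1.

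Ddx39a (Entrez gene 68278), a near-identical copy of Ddx39b with the same role in export, was lower at 1 mg/kg. It read 6.43, 6.41, 6.32, 6.00 and 5.98 in vehicle, 5.58, 6.18, 5.80, 6.14 and 5.13 at 1 mg/kg and 6.22, 6.47, 6.25, 6.05 and 6.04 at 5 mg/kg. Replicates 1, 3 and 5 at 1 mg/kg were below all vehicle arrays, and the 5 mg/kg arrays lay within the range of vehicle but for replicate 2. The difference was -0.46 ± 0.21 at 1 mg/kg (unadjusted p = 0.0467, limma adjusted p = 0.828) and -0.02 ± 0.21 at 5 mg/kg. The former was -0.41 without 1 mg/kg replicate 1 and -0.30 without replicate 5, the lowest array. Without 5 mg/kg replicate 1 another probe set became the brightest, and it gave -0.26. The 5 tested Ddx39a probe sets differed from vehicle at 1 mg/kg by -0.46, -0.26, -0.21, 0.11 and -0.29, or by -0.41, -0.28, -0.28, -0.01 and -0.34 without replicate 1. Because the chosen Ddx39a and Ddx39b probe sets are both of the _x_at kind, signal shared between the copies cannot be told apart.

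The remaining members of this set act in export, translation and decay. Ddx19b, an export helicase of the nuclear pore, was at or near the floor in most arrays and differed from vehicle by 0.01 ± 0.24 at 5 mg/kg. Dhx29, which helps ribosomes through structured leaders, differed by 0.22 ± 0.24. Ddx3x, which also acts in translation initiation, was 0.28 ± 0.21 above vehicle at 5 mg/kg (95% interval -0.16 to 0.72), and its 3 probe sets gave 0.28, 0.32 and 1.18, each with an unadjusted p above 0.05. Ddx6, which represses translation and promotes decapping, read 7.62, 8.32, 8.23, 7.58 and 8.13 in vehicle and 7.83, 7.62, 7.64, 7.45 and 7.60 at 1 mg/kg. The 1 mg/kg arrays lay near the low end of the vehicle range, replicate 4 just below it, and the difference was -0.35 ± 0.20 (limma adjusted p = 0.855), or -0.40 without replicate 1. It was -0.01 ± 0.20 at 5 mg/kg (95% interval -0.44 to 0.41). The other 3 tested Ddx6 probe sets did not share a direction at 5 mg/kg: they gave -0.60 (unadjusted p = 0.0151, limma p adjusted over all probe sets 0.429), 0.38 and -0.12. Dhx34, a factor of nonsense-mediated decay, had the greatest mean difference of all members at 5 mg/kg, 1.71 ± 0.84 (95% interval -0.07 to 3.48; unadjusted p = 0.0588, limma adjusted p = 0.677). Its arrays ran from 4.0 to 6.31 in vehicle, from 4.0 to 8.23 at 1 mg/kg and from 4.0 to 8.33 at 5 mg/kg, with the floor reached in each group. Leaving out 5 mg/kg replicate 4 gave 1.27 and leaving out 5 mg/kg replicate 3 gave 2.38, so the size of the Dhx34 difference rests on single arrays.

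**Figure D3:**
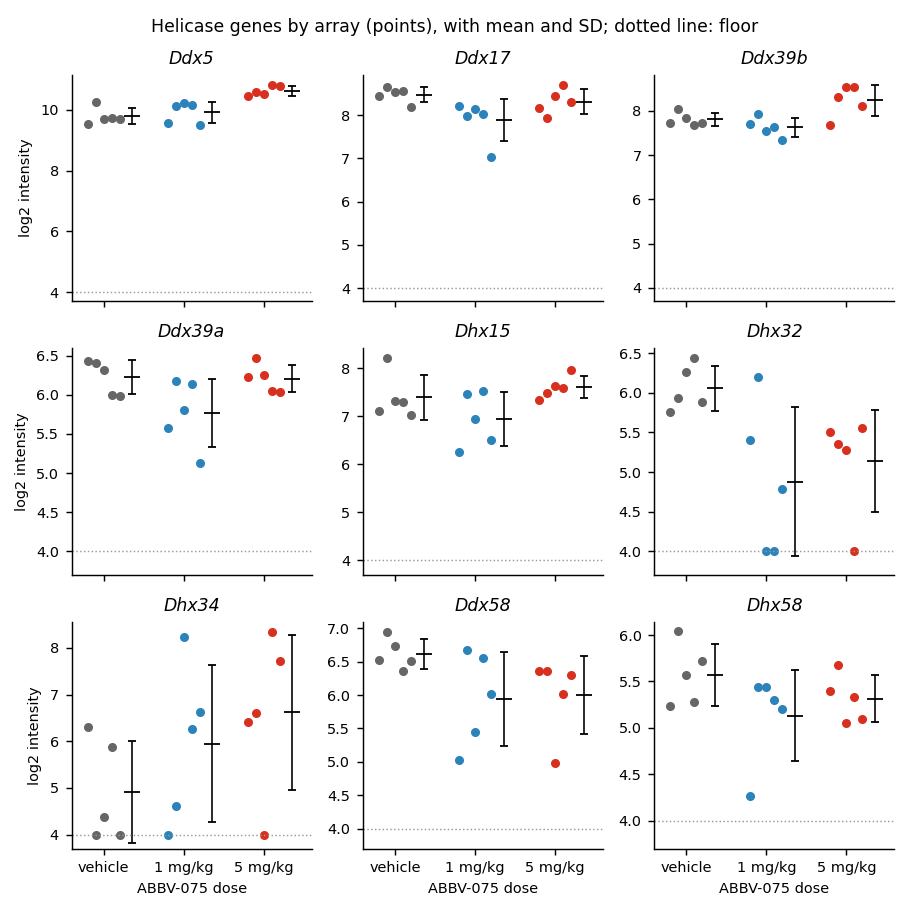
Log2 intensity (vertical axis, with its own range in each panel) of 9 helicase genes in vehicle, 1 mg/kg and 5 mg/kg (horizontal axis), with 1 point per array, the mean with SD beside each group (n = 5) and a dotted line at the floor. Ddx5 at 5 mg/kg lies above all other arrays, Dhx32 at 5 mg/kg lies below all vehicle arrays, and the groups overlap for the other 7 genes.

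The promoters of Ddx5, Ddx39b and Ddx17 are shown because Ddx5 and Ddx39b had the smallest p of the members that were higher at 5 mg/kg and Ddx17 is the close relative of Ddx5. Each window is the 250 bases before an annotated start in RefSeq, build GRCm38.p6, written 5′ to 3′ on the gene's strand, with matches to the searched motifs in capitals. The Ddx5 window, 1 of 3 for this gene, is chr11:106788495-106788744 (minus strand), has a GC content of 70% and holds a TATAAA motif 30 bases before the start and 4 matches to GGGCGG, the GC box bound by Sp factors. The Ddx39b window, the only one for that gene, is chr17:35241496-35241745 (plus strand) and holds CCGGAAG, the core bound by ETS factors, 24 bases before the start on the opposite strand. The Ddx17 window, 1 of 2, is chr15:79546742-79546991 (minus strand) and holds GGGCGG and CCGGAAG.
Ddx5: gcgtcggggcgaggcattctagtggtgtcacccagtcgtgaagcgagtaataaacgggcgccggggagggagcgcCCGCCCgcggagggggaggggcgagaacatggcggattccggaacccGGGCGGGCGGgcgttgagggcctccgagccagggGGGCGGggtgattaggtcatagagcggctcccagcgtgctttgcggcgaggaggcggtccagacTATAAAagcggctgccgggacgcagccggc
Ddx39b: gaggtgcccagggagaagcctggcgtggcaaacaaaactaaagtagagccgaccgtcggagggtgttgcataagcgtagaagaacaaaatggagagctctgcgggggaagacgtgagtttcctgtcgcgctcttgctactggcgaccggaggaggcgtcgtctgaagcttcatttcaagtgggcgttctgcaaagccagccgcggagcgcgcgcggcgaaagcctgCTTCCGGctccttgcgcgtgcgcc
Ddx17: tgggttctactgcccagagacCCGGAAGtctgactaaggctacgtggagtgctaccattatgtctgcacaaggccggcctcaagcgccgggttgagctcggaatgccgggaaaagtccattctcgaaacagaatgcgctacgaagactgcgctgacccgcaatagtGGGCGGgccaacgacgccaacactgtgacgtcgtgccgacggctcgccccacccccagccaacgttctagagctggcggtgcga
None of the motifs searched for was in all 3 windows shown, but another Ddx5 window holds CCGGAAG 114 bases before its start, so each of the 3 genes has CCGGAAG in at least 1 window.

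Over the helicase genes 45 of 51 had a promoter window in RefSeq, 56 windows in all. On either strand CCGGAAG was in 30.4% of the helicase windows, against 8.98% of the windows of protein-coding genes and 6.91% of all windows. GGGCGG was in 55.4%, against 42.6% and 32.7%. CCAAT, bound by NF-Y, was in 42.9% (35.4% of protein-coding windows), and CACGTG, the E-box of Myc and its relatives, in 10.7% (6.63%). TATAAA was in 7.14% (11.6%) and a pair of GAAA motifs 2 bases apart, as in the interferon response element, in 5.36% (2.96%). Base composition differed as well: the median GC content was 60% in helicase windows and 55.6% in protein-coding windows. These matches describe letters in a window and were not tested against the expression values.

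Among the helicases of ribosome assembly 12 of 16 were tested. Of these, 7 had a higher and 5 a lower mean at 5 mg/kg than in vehicle, with a median of 0.10, and at 1 mg/kg the split was also 7 and 5, with a median of 0.11. Without 1 mg/kg replicate 1 the latter became 5 and 8 of 13 tested, with a median of -0.06. The genes and probe sets are not all the same there: Dhx37 entered the test and another Ddx18 set stood for that gene. At 1 mg/kg this Ddx18 set gave -0.49 and the usual one 0.13 in that fit. None passed the test, and none had an unadjusted p under 0.05 in any comparison with its brightest probe set; dimmer sets of Ddx10, Ddx21 and Ddx47 did. Ddx21, which couples RNA polymerase I transcription to ribosomal RNA processing, was 0.45 ± 0.29 above vehicle at 5 mg/kg (95% interval -0.16 to 1.06) and 0.44 ± 0.29 at 1 mg/kg, with limma adjusted p of 0.79 and 0.873, and 0.29 at 1 mg/kg without replicate 1. Its arrays ran from 4.30 to 5.55 in vehicle, 4.65 to 5.95 at 1 mg/kg and 5.16 to 5.70 at 5 mg/kg. A second Ddx21 probe set pointed the other way, by -0.32 at 5 mg/kg and by -0.54 at 1 mg/kg (unadjusted p = 0.0257), the latter -0.49 without replicate 1. Ddx54 was 0.38 ± 0.22 above vehicle at 5 mg/kg (limma adjusted p = 0.759), with replicate 4 the highest array at either dose. Without 5 mg/kg replicate 4 it was 0.23. These Ddx54 values come from an _x_at set. A second tested Ddx54 set, an _at set, gave 0.44 at 5 mg/kg. At 1 mg/kg the _x_at set gave 0.28 and the _at set -0.40, or 0.32 and -0.24 without replicate 1. Between the doses they gave 0.10 and 0.85, or 0.07 and 0.68 without 1 mg/kg replicate 1. Ddx52 was -0.41 ± 0.23 below vehicle at 1 mg/kg (limma adjusted p = 0.843) and -0.16 without replicate 1, whose value of 4.35 stood far from the 5.50 to 5.72 of the other arrays. Ddx10, Ddx18, Ddx47 and Ddx21 each had tested probe sets of opposite sign at 5 mg/kg. For Ddx10 these were 0.25 and -0.70, the latter with an unadjusted p of 0.0148 and a limma p of 0.425 adjusted over all probe sets. For Ddx47 the brightest set gave -0.14 and another 0.66 at 5 mg/kg (unadjusted p = 0.0407), and the latter differed by 0.96 between the doses (unadjusted p = 0.00506; 0.88 without 1 mg/kg replicate 1). In all, 8 of the 20 helicase genes with more than 1 tested probe set had probe sets that disagreed in sign.

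Among the helicases of RNA sensing and antiviral defence 4 of 5 were tested, with Ddx60 at the floor. All 4 had a mean below vehicle at 1 mg/kg, with a median of -0.34, and 2 of 4 at 5 mg/kg, with a median of -0.01. The 1 mg/kg count was 3 of 4 without replicate 1, with a median of -0.22. None passed the test. Ddx58 (RIG-I; Entrez gene 230073), the cytosolic sensor of viral RNA ends, read 6.53, 6.95, 6.73, 6.36 and 6.51 in vehicle. With 1 mg/kg it read 5.02, 6.68, 5.45, 6.55 and 6.01. With 5 mg/kg it read 6.36, 6.36, 4.98, 6.02 and 6.30. The 5 mg/kg arrays lay below the vehicle range except for 2 at its lower edge, and 1 mg/kg replicates 2 and 4 lay within the vehicle range. The difference was -0.67 ± 0.33 at 1 mg/kg (unadjusted p = 0.0583, limma adjusted p = 0.831) and -0.62 ± 0.33 at 5 mg/kg (unadjusted p = 0.0807, limma adjusted p = 0.727). It was -0.44 at 1 mg/kg without replicate 1, and -0.36 at 5 mg/kg without 5 mg/kg replicate 3. A second Ddx58 probe set gave -0.64 at 5 mg/kg. Dhx58 (LGP2), which modulates RIG-I-like sensing, was -0.44 ± 0.24 below vehicle at 1 mg/kg, -0.23 without replicate 1, and -0.26 ± 0.24 at 5 mg/kg. Dhx9 and Dhx36, helicases with wider roles in RNA and DNA structure, were 0.41 ± 0.28 and 0.23 ± 0.27 above vehicle at 5 mg/kg, with 95% intervals that spanned 0.

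Of the mitochondrial helicases only Dhx30, which serves the mitochondrial ribosome, was tested. It read 6.63, 7.29, 7.11, 6.92 and 6.56 in vehicle and 6.36, 6.82, 6.60, 6.21 and 6.45 at 5 mg/kg. Replicates 1, 4 and 5 at 5 mg/kg were below all vehicle arrays. The difference was -0.41 ± 0.22 (limma adjusted p = 0.732), and at 1 mg/kg it was -0.01, or 0 without replicate 1. Dimmer tested Dhx30 probe sets, with means of 4.38 and 4.13 close to the floor, disagreed in sign at 5 mg/kg. The former, an _at set, gave -0.18 and the latter, an _x_at set, 0.31. At 1 mg/kg they gave -0.39 and -0.01, or -0.39 and 0 without replicate 1. Under the processing alternatives the Dhx30 difference from vehicle at 5 mg/kg ran from -0.5 to -0.07. Ddx25, the 1 germ line helicase of 3 with signal, differed from vehicle by -0.18 ± 0.39 at 5 mg/kg.

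The last set holds genes of other or less known roles, of which 5 of 7 were tested, 3 higher and 2 lower at 5 mg/kg with a median of 0.06. None passed the test. Dhx32 (Entrez gene 101437), a DEAH box protein of poorly known function, had the lowest mean difference of all members at both doses. It read 5.76, 5.93, 6.27, 6.44 and 5.89 in vehicle. Treated arrays read 5.40, 6.20, 4.0, 4.0 and 4.79 at 1 mg/kg, and 5.51, 5.35, 5.28, 4.0 and 5.56 at 5 mg/kg. All 5 arrays at 5 mg/kg and 4 of 5 at 1 mg/kg were below every vehicle array, and 3 treated arrays were at the floor. The difference was -1.18 ± 0.40 at 1 mg/kg (95% interval -2.02 to -0.34; unadjusted p = 0.00919, limma adjusted p = 0.705) and -0.92 ± 0.40 at 5 mg/kg (95% interval -1.76 to -0.08; unadjusted p = 0.0345, limma adjusted p = 0.583). Without 1 mg/kg replicate 1 the former was -1.35, and without 5 mg/kg replicate 4 the latter was -0.63. These values come from an _x_at probe set, which can bind related transcripts, and its other probe set, an _a_at set, was at the floor on all arrays. Ddx1, Ddx20, Dhx40 and Dhx57 differed from vehicle by -0.32, 0.06, 0.27 and 0.07 at 5 mg/kg, none beyond its spread.

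**Figure D4:**
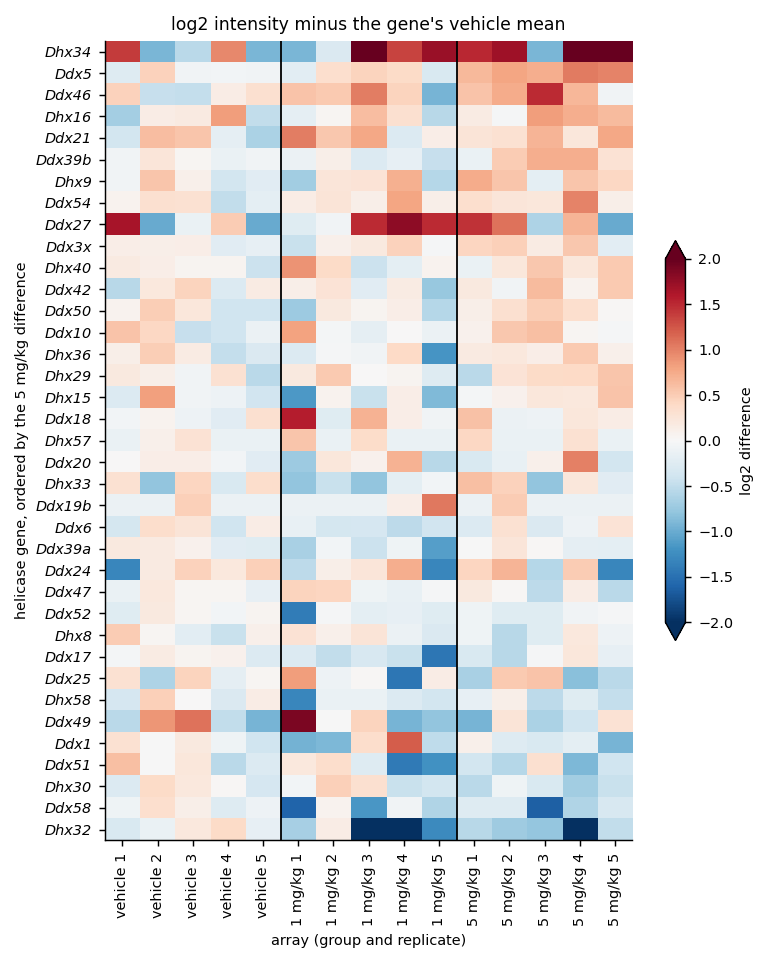
Log2 intensity minus the gene's mean over the vehicle arrays, for the 37 tested helicase genes (rows, ordered by the 5 mg/kg difference) on the 15 arrays (columns); red is above and blue below that mean, and the colour scale ends at 2 either way. The row of Ddx5 is red on all 5 arrays at 5 mg/kg, and single arrays such as 1 mg/kg replicates 1 and 5 stand apart in several rows.

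The genes around these helicases were followed through lists. Of 19 RNA helicases with other names 13 were tested, 8 higher and 5 lower at 5 mg/kg, with a median of 0.12 and 0 past the limma threshold. At an unadjusted p under 0.05 there were 4, or 30.8%, beside the 7.78% of all genes that holds for each list at this dose. Eif4a2 and Eif4a1, which unwind mRNA leaders for translation, were 0.76 ± 0.26 and 0.64 ± 0.22 above vehicle, with limma adjusted p of 0.385 and 0.399, and the Eif4a1 arrays did not overlap. Helz2, an interferon-induced helicase, was 0.54 ± 0.24 above vehicle (limma adjusted p = 0.595), and Ifih1 (MDA5), the sensor of long viral RNA, was -0.66 ± 0.31 below it (limma adjusted p = 0.64).

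A list of G-patch proteins and other cofactors was drawn up around Dhx15. The helicase that each of them serves was not examined, and Gpkow and Gpatch1 may serve others than Dhx15. Of the 15 listed, 12 were tested, 6 higher and 6 lower at 5 mg/kg, with a median of 0.09. The limma threshold was passed by 0 of them (1 unadjusted, 8.33%). Gpkow, a G-patch protein, was 0.72 ± 0.25 above vehicle without overlap (limma adjusted p = 0.415), Rbm5 0.42 ± 0.22 above and Gpatch1 -0.52 ± 0.30 below it. Of the 12, 10 were lower at 1 mg/kg, with a median of -0.22, or 9 with a median of -0.19 without replicate 1. Of a list of mRNA export factors drawn up around Ddx39b 15 of 16 were tested, 9 higher and 6 lower with a median of 0.08. The limma threshold was passed by 0 of them (0 unadjusted). The list takes in nuclear pore factors that may serve Ddx19b instead: Gle1, Nup214 and Nupl2, at 0.08, -0.30 and 0.31. Thoc6, Thoc1 and Chtop, of the TREX complex, were 0.58, 0.49 and 0.27 above vehicle, each with an unadjusted p above 0.05. Of the decay partners of Ddx6 9 of 12 were tested, 3 higher and 6 lower with a median of -0.06 (limma 0 past the threshold, 0 unadjusted); Lsm14b, Edc3 and Lsm14a differed from vehicle by 0.40, -0.32 and 0.24. Of the SMN complex, which contains Ddx20 and assembles snRNPs, Strap and Gemin7 were tested and differed by 0.55 and 0.05.

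Below the RNA sensors 11 of 12 signalling genes were tested, 7 higher and 4 lower at 5 mg/kg with a median of 0.13 and 0 past the limma threshold (1 unadjusted, 9.09%). Irf3, the transcription factor that the sensors activate, was 0.59 ± 0.22 above vehicle (limma adjusted p = 0.468), Zc3hav1 0.31 ± 0.18 above and Rnf125 -0.51 ± 0.29 below it. Of the interferon-stimulated genes 18 of 24 were tested, 4 higher and 14 lower at 5 mg/kg with a median of -0.38 and 0 past the limma threshold (4 unadjusted, 22.2%, all lower). Gbp3 was -0.85 ± 0.21, Rtp4 -1.12 ± 0.28 and Ifit2 -1.02 ± 0.45 below vehicle, with limma adjusted p of 0.163, 0.164 and 0.594. Of the 18, 13 were lower at 1 mg/kg, with a median of -0.32, or 12 with a median of -0.20 without replicate 1. The 1 mg/kg differences ran from -1.22 to 1.34. An unadjusted limma p under 0.05 was met there by 5 lower and 2 higher genes (38.9%, beside 6.03% of all genes). Without replicate 1 it was met by 6 (33.3%, beside 5.61%). This list and that of the other RNA helicases share Ifih1.

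Blood is a mixture, and in bulk samples fewer cells of a type and less RNA per cell cannot be told apart. Marker lists of blood cell types were therefore read in the same arrays. All 7 tested B cell markers (of 8 listed) had a higher mean at 5 mg/kg, with a median of 0.64 and a summed intensity of 2023 to 4282, against 1053 to 2638 in vehicle and 549 to 2206 at 1 mg/kg. Of the T cell markers 5 of 7 tested were higher, with a median of 0.35 and sums of 1037 to 2054 against 867 to 1359 in vehicle and 752 to 1319 at 1 mg/kg. All 11 monocyte markers were lower at 5 mg/kg, with a median of -0.88 and sums of 3374 to 4670 against 5553 to 8443 in vehicle and 4042 to 6937 at 1 mg/kg. All 8 tested neutrophil markers were lower, with a median of -0.46 and sums of 878 to 3588 against 2353 to 3603 in vehicle and 1251 to 2740 at 1 mg/kg, where all 8 were also lower, with a median of -0.67. The 1 mg/kg medians were -0.31 for B cell, -0.19 for T cell, -0.60 for monocyte and -0.55 for NK cell markers; without replicate 1 they were -0.44, -0.34, -0.56 and -0.49, and that of neutrophils -0.71. No marker of the 4 first lists passed the limma threshold at 5 mg/kg, except 1 monocyte marker when 1 mg/kg replicate 1 was left out. An unadjusted p under 0.05 was met at 5 mg/kg by 42.9% of B cell, 14.3% of T cell, 63.6% of monocyte and 25% of neutrophil markers, beside 7.78% of all genes. Dendritic cell markers were also lower (5 of 5 tested, median -0.80), as were NK cell (7 of 7, median -0.40) and platelet markers (8 of 8, median -0.23), none past the threshold. Erythroid markers were mixed, with 4 lower and 2 higher of 6 tested and a median of -0.28, and 0 past the threshold. The part of these shifts in the values of Ddx5, Ddx39b, Ddx17, Ddx39a, Ddx58 and Dhx32 was not tested. The 18S signal, which was higher in vehicle, also had different means between the groups; with it as a covariate the Ddx5 difference at 5 mg/kg was 0.96 (limma adjusted p = 0.49).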

How the data were processed

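Total RNA of whole blood from 15 mice was hybridised to Affymetrix mouse arrays, 1 array per mouse and 5 per group. As their range shows, the values the authors deposited are linear intensities; summarisation and scaling before deposit are not given in the sources used here. Array medians differed several-fold in the deposited values, which were therefore quantile normalised. The table holds 45101 probe sets, of which 64 controls were left out; 34945 have 1 gene in the platform annotation, 932 several and 9160 none. Normalisation ran over all other probe sets; values were then floored at 16 and put on the log2 scale. Each gene took its brightest probe set, and genes above the floor on at least 5 arrays were tested. Both choices were made anew when an array was left out. All 3 groups were fitted in limma 3.58.1 (R 4.3.3), with 12 residual and 3.9 prior degrees of freedom, and p-values were adjusted over all 12499 genes by Benjamini-Hochberg. The median standard error of a log2 difference was 0.289, and the number of arrays limits the precision. The procedure was checked on simulated data.

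The helicase set, gene lists and tests were chosen with earlier results of these data known, and the lists support nothing by themselves. Named genes are the 8 members of smallest p against vehicle at each dose, the 4 of smallest p between doses, any past the threshold, those without overlap with vehicle, the 5 brightest, a fixed set of well-known members, and up to 3 genes of smallest p at 5 mg/kg per pathway list; other genes named were chosen after their values were seen. Gene symbols and Entrez identifiers are those of the platform annotation and can be old. Promoter windows came from RefSeq, build GRCm38.p6. Alternatives covered scaling, floor, filter, choice of probe set, groups in the fit, array weights, variance model, replicate block, 18S covariate and leaving out arrays. Protein sequences were not used here.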

Additional observations from a re-analysis of the deposited data

Results flagged for a closer look

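Among the groups of 5 arrays of the 17 helicase genes named by rule with signal, 51 groups were examined and 8 held an array far from the other 4 of its group by Dixon's criterion, which chance meets in about 1 of 20 groups. At 1 mg/kg the lowest array of Ddx17 (7.03, replicate 5), of Ddx52 (4.35, replicate 1) and of Dhx58 (4.27, replicate 1) stood apart, as did the highest of Ddx54 (6.33, replicate 4). Replicate 1 is the array of lowest median intensity and replicate 4 the one of highest. At 5 mg/kg the highest array of Ddx54 (6.54, replicate 4) and the lowest of Ddx58 (4.98, replicate 3) and of Dhx32 (4.0, replicate 4, at the floor) stood apart. In vehicle it was the highest array of Dhx15 (8.21, replicate 2). The part of array quality in these values was not tested.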

How the results depend on the processing

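The results were recomputed under 30 alternatives, 15 of which left out 1 array each. The count of helicase genes past the threshold was 0 in every comparison under all of them, except that with array weights Ddx5 passed between 5 mg/kg and vehicle (count 1; difference 0.85, limma adjusted p = 0.0473). Under the others its adjusted p ran up to 1 with no scaling between arrays, and its difference from 0.73 to 1.0, or 0.77 to 0.95 with 1 array left out. The median helicase difference at 5 mg/kg was 0.27 with no scaling, where the median over all genes was 0.1, and 0.24 with the 18S covariate. With no filter on low values 16 of 34 genes had probe sets that disagreed in sign. Leaving out 1 array moved the medians over 0.05 to 0.16, -0.09 to 0.08 and 0.10 to 0.25 for the 3 comparisons in the order of the text (5 mg/kg against vehicle, 1 mg/kg against vehicle, the doses) and the count of disagreeing genes over 7 to 9.

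Of 51 named values 13 changed sign under some alternative, none of them past the threshold. For 5 mg/kg against vehicle, Ddx39a was 0.11 with no scaling, 0.01 with array weights, 0.54 with the 18S covariate and 0.11 without vehicle replicates 1 and 2 (range with 1 array left out -0.09 to 0.03). Ddx6 was 0.10 with no scaling and 0.02 with array weights (-0.11 to 0.07). For 1 mg/kg against vehicle, Dhx9 was 0.01 with no scaling and with 75th percentile scaling, 0.13 with array weights, 0.45 with the 18S covariate and 0.15 without vehicle replicates 1 and 2 (-0.19 to 0.16). Dhx30 was 0.12, 0.06 and 0.03 under the last 3 of these and 0.15 without 1 mg/kg replicates 1 and 4 (-0.14 to 0.10). Ddx54 was -0.26 with a floor of 32, -0.10 with the mean of the probe sets and -0.21 without 1 mg/kg replicates 1 and 4. In the main processing its brightest probe set (mean 5.77) gave 0.28 and the next (mean 5.65) -0.40. Which of them stood for Ddx54 under the floor of 32 or without those arrays was not examined. With the mean of the probe sets Ddx39b was 0.03 and Ddx21 -0.05, and Ddx3x ran from -0.04 to 0.19 with 1 array left out. Between the doses, Ddx21 was -0.06 with a floor of 32, -0.04 with array weights and -0.03 without 1 mg/kg replicates 1 and 4 (-0.17 to 0.16). Ddx58 was -0.08 with the mean of the probe sets and -0.05 without 1 mg/kg replicates 1 and 4 (-0.17 to 0.31). Dhx58 was -0.05 under the latter (-0.03 to 0.26), Dhx30 0.03 with the mean of the probe sets, and Ddx54 ran from -0.05 to 0.22. The cause was not tested.

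Of all genes at 5 mg/kg, 11 passed in the fit reported, 45 with a floor of 32, 22 with at least 1 array above the floor, 17 with no filter, 33 with the mean of the probe sets, 32 with each probe set on its own, 18 with only the 2 groups, 65 with array weights, 1 with no scaling, 0 with the 18S covariate, 3 without vehicle replicates 1 and 2, and 17 without 1 mg/kg replicates 1 and 4. With 1 array left out the count was 8 to 22, reaching 19 when 1 mg/kg replicate 1 was dropped and 22 when replicate 5 of that group was. The settings that leave out 2 arrays were chosen after the data were seen. Same-numbered arrays did not deviate together (15 pairs, correlations -0.275 to 0.355, 3 above 0.1, and 4 of 15 arrays matched best with their own number). With the replicate block 0 helicase genes passed in each comparison, 9 of all genes passed at 5 mg/kg, and the Ddx5 difference was 0.84 (limma adjusted p = 0.253). Nothing in the labels beyond 5 mice per group describes the replicates. Signal at the floor on most arrays limits 14 of 51 members to no test.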
